A study of Mus musculus with 19 samples.

Results

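Endoplasmic reticulum (ER) chaperone genes were examined in RNA of monocytes sorted from mouse bone marrow. The 10 genes, Serp1, Pdia3, Pdia4, Pdia6, Hspa5, Hsp90b1, Calr, Canx, Xbp1 and Sdf2l1, were taken out of the 50854 genes of the count table, and each was covered by 1 row. They were chosen on measured values, since Serp1 and Pdia3 had been seen to be lower in inflamed libraries, so the inflamed-against-resting differences of the members are given as a description with no test. All 10 passed the filter of a mean of 1 read per library that left 18652 genes. The cells came from female REP mice aged 8 to 12 weeks, which carry fluorescent reporters for inflammatory chemokine receptors, CCR1 and CCR2 among them, in every group. In resting mice, CCR1/2+ve monocytes (both reporters on; 4 libraries) and CCR2+ve monocytes (4 libraries) were sorted. In inflamed mice, which bore subcutaneous osmotic pumps releasing IL-3, IL-6, GM-CSF and IFN-α, there were 3 libraries of CCR1/2+ve monocytes (numbered 2, 3 and 4), 4 of CCR2+ve monocytes and 4 titled inflamed CCR1, a population on which the sort description is silent. Whether the resting mice of these libraries bore vehicle pumps, and how many mice went into a library, is not given in the sources used here, so p-values measure the spread between libraries, which may be technical. Reads on genes ranged from 22268658 to 30502009 per library.

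The monocyte label held for 4 of the 5 groups, in which 8 monocyte markers summed to between 25651 and 48306 CPM, against 7478 to 12247 CPM in the inflamed CCR1 libraries. Most of each sum was 1 gene, Lyz2, with a mean of 27582 CPM in resting CCR1/2+ve and 8277 CPM in inflamed CCR1 libraries. All 8 markers were at 10 CPM or more in each of those 4 groups, and 4 of 8 were in the inflamed CCR1 libraries. Ccr2 was at 1251 ± 125 CPM in inflamed CCR2+ve libraries (CPM are read counts scaled to a common library size with TMM factors; values are mean ± SD throughout) and at 1240.3 ± 135 CPM in inflamed CCR1/2+ve libraries, but at 5.82 ± 2.56 CPM in the inflamed CCR1 libraries, where Csf1r was at 17.7 ± 4.44 CPM and Cx3cr1 at 2.38 ± 0.554 CPM. The inflamed CCR1 libraries carried granule transcripts instead, with Elane at 24887 ± 1913 CPM and Ngp at 86027 ± 12719.7 CPM. The summed level of the 4 early granule progenitor markers in the table was 44372 to 53465 CPM there and 273 to 555 CPM in inflamed CCR2+ve libraries. These 4 libraries are therefore called by their title and not as monocytes. Of the 9 B and plasma cell markers, Ighm was the most abundant in every group, at 888 ± 114 CPM in resting CCR2+ve and 1305 ± 332 CPM in inflamed CCR2+ve libraries, and Mzb1, a plasma cell ER gene, was at 0.244 ± 0.119 and 0.0474 ± 0.0548 CPM. The 6 erythroid markers summed to 90.8 to 289 CPM in resting CCR2+ve, 56.2 to 175 CPM in resting CCR1/2+ve and at most 3.41 CPM in inflamed libraries, a difference whose part in the results was not tested.

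Proteins that enter the secretory pathway fold in the ER lumen with the help of chaperones and of enzymes that form and rearrange disulphide bonds. Hspa5 (BiP) is the ER Hsp70, which holds unfolded chains and keeps the sensors IRE1, PERK and ATF6 silent until it is drawn away from them, and Hsp90b1 (GRP94) is the ER Hsp90. Calr (calreticulin) and Canx (calnexin) bind glycoproteins and work with Pdia3 (ERp57), while Pdia4 (ERp72) and Pdia6 (P5) are other protein disulphide isomerases. Sdf2l1 assists BiP together with the co-chaperone ERdj3, Serp1 (RAMP4) sits at the translocon, and Xbp1 encodes the transcription factor that IRE1 switches on by splicing its mRNA. In this unfolded protein response (UPR) most of the members are textbook targets of ATF6 and XBP1 and usually rise as a set, and monocytes use the same machinery to make receptors and secreted enzymes.

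Because the members are known for a shared promoter element, the ER stress response element (ERSE), in which CCAAT is bound by NF-Y and CCACG by ATF6, their promoters are shown first. The motif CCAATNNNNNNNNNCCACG was searched on both strands in RefSeq windows (GRCm38.p6) running from 250 bases before to 50 bases after each gene's start, and all 10 members matched 1 window each by symbol. An exact match was found in 39 of 32851 windows (0.119%), and in 5 of the 10 members, Pdia6, Hspa5, Hsp90b1, Calr and Canx, with 2 matches in Hsp90b1. Pdia3 and Pdia4 held a match with 1 letter different, which 494 windows (1.50%) held at least, and Serp1, Sdf2l1 and Xbp1 held neither, which says only that these letters are not in these windows. The stretches lie at chr12:17266471-17266529 (Pdia6, plus strand), chr2:34772005-34772063 (Hspa5, plus strand), chr10:86705618-86705676 and chr10:86705513-86705571 (Hsp90b1, minus strand), chr8:84847055-84847113 (Calr, minus strand), chr11:50325780-50325838 (Canx, minus strand), chr2:121413853-121413901 (Pdia3, plus strand) and chr6:47813582-47813640 (Pdia4, minus strand). They are written 5′ to 3′ on the strand of the gene, with both ends of the motif in capitals, and in the second Hsp90b1 stretch, in Calr and in Pdia4 the motif reads on the opposite strand.
Pdia6: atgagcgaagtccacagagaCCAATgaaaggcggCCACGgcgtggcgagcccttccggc
Hspa5: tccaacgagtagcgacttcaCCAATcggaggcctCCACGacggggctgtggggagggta
Hsp90b1, first: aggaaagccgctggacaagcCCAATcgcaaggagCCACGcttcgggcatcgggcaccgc
Hsp90b1, second: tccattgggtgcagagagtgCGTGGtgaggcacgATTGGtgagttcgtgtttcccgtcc
Calr: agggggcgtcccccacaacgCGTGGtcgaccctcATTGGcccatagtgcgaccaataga
Canx: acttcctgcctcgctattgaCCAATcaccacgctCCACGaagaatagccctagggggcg
Pdia3, with 1 letter different: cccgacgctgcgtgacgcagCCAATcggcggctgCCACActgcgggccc
Pdia4, with 1 letter different: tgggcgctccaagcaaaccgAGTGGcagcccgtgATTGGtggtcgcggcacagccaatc

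Between resting and inflamed monocytes the members did not move as a set. Serp1, Pdia3 and Sdf2l1 were lower in inflamed libraries of both populations by a log2 difference of about 3, and Xbp1 was lower by a smaller amount. Pdia4, Pdia6, Hspa5, Hsp90b1 and Calr were higher, and Canx lay near its resting level. The libraries of the 2 states did not overlap for 8 of 10 members in CCR2+ve and 9 of 10 in CCR1/2+ve monocytes. Among all genes tested this was the case for 45.7% and 50.1%, but these include genes of low counts. Where the mean level reached 50 CPM, as in all 10 members, 48.4% of genes lay wholly higher in inflamed CCR2+ve libraries and 22.99% wholly lower. For CCR1/2+ve libraries these shares were 54.4% and 22.01%. The members' median log2 fold change was 0.21 for CCR2+ve (all genes, −0.10) and 0.17 for CCR1/2+ve monocytes (all genes, −0.25). Genes averaging 50 CPM or more had medians of 0.24 and 0.30, both above those of the members.

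**Figure D1:**
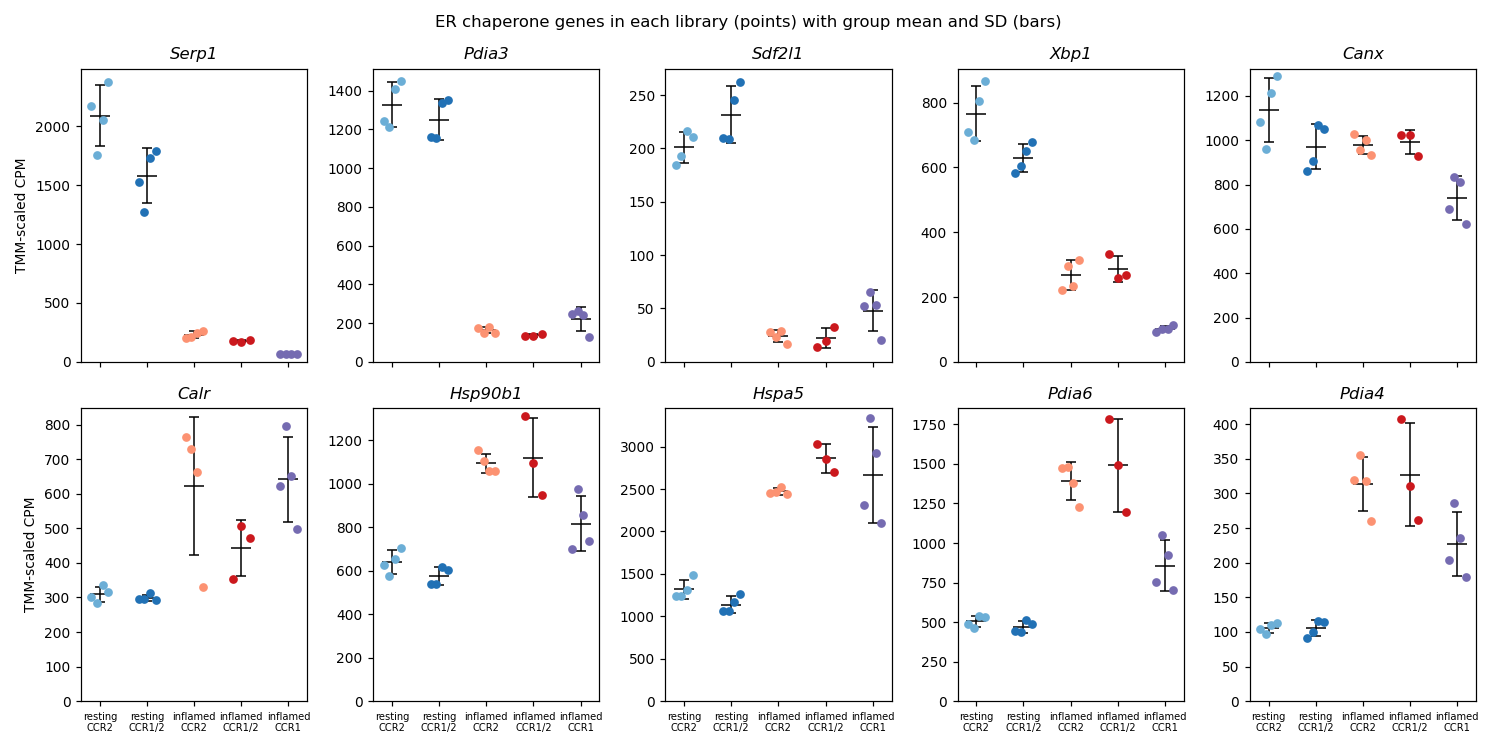
Each panel shows 1 member, with TMM-scaled CPM on a linear axis from 0 against the 5 groups; points are libraries and bars the group mean ± SD. Serp1, Pdia3, Sdf2l1 and Xbp1 are lower in every inflamed than in every resting library, and Pdia4, Pdia6, Hspa5 and Hsp90b1 are higher in inflamed CCR2 and CCR1/2 libraries than in every resting library.

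Serp1 (chr3:58519817-58525892, minus strand), the translocon-associated protein, was among the most abundant members at rest. On the CPM scale its levels in resting CCR2+ve libraries 1 to 4 were 2168, 1759, 2057 and 2374 CPM, and in resting CCR1/2+ve libraries 1529, 1274, 1732 and 1787 CPM. In inflamed CCR2+ve libraries they were 206, 208, 248 and 261 CPM, in inflamed CCR1/2+ve libraries 180.3, 170.4 and 188 CPM and in inflamed CCR1 libraries 70.7, 66.4, 68.3 and 66.2 CPM. Every inflamed library lay far below every resting one, and the inflamed CCR1 libraries lay below the other inflamed libraries. The log2 fold change was −3.25 (SE 0.13) in CCR2+ve monocytes, a level 9.49-fold lower, and −3.26 (SE 0.11) in CCR1/2+ve monocytes, 9.59-fold lower. Of its exonic bases 1.56% are also covered by Eif2a on the other strand, whose mean level was 76.4 CPM in resting and 87.6 CPM in inflamed CCR2+ve libraries.

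Pdia3 (chr2:121413775-121438687, plus strand), the isomerase that partners calreticulin and calnexin, stood at 1245, 1213, 1406 and 1448 CPM in resting CCR2+ve and 1161, 1153, 1334 and 1349.8 CPM in resting CCR1/2+ve libraries. In inflamed libraries it was at 175, 151, 179 and 149.8 CPM in CCR2+ve and 132, 134 and 143 CPM in CCR1/2+ve monocytes. The inflamed CCR1 libraries held 248, 264, 243 and 129.9 CPM, the first 3 above and the fourth below every inflamed CCR2+ve library. Against rest, Pdia3 was 8.51-fold lower in CCR2+ve monocytes, with a log2 fold change of −3.09 (SE 0.11), and 10.0-fold lower in CCR1/2+ve monocytes, with −3.32 (SE 0.090).

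Sdf2l1 (chr16:17130138-17132383, minus strand), the BiP-associated factor, was at 185, 193, 216 and 210.3 CPM in resting CCR2+ve and 209.6, 209, 246 and 262 CPM in resting CCR1/2+ve libraries. It was at 28.3, 23.1, 28.5 and 17.0 CPM in inflamed CCR2+ve, 14.0, 19.6 and 32.7 CPM in inflamed CCR1/2+ve and 52.5, 65.8, 52.8 and 20.3 CPM in inflamed CCR1 libraries. The drop was as deep as that of Serp1, but the inflamed libraries of 1 group differed among themselves by up to 3.24-fold. Its log2 fold change was −3.12 (SE 0.15) in CCR2+ve and −3.51 (SE 0.28) in CCR1/2+ve monocytes. Dnajb11, which encodes its partner ERdj3, was at 243 ± 25.8 CPM in resting and 101 ± 25.7 CPM in inflamed CCR2+ve libraries.

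Xbp1 (chr11:5520659-5525893, plus strand) lay between these genes and Canx. It was at 708, 684, 805 and 866 CPM in resting CCR2+ve, 582, 605, 649.7 and 679.9 CPM in resting CCR1/2+ve, 222, 296, 235 and 316 CPM in inflamed CCR2+ve, 334, 259.6 and 269 CPM in inflamed CCR1/2+ve and 93.1, 101, 102 and 114 CPM in inflamed CCR1 libraries. Resting, inflamed monocyte and inflamed CCR1 libraries formed 3 levels with no overlap. The log2 fold change was −1.59 (SE 0.13) in CCR2+ve and −1.26 (SE 0.10) in CCR1/2+ve monocytes. Counts per gene cannot show whether the mRNA was spliced, so they hold no measure of the active XBP1 protein.

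Other genes dropped as far. Of the 3802 genes whose mean reached 50 CPM, 97 (2.55%) had a log2 fold change of −3 or lower among CCR2+ve and 99 (2.60%) among CCR1/2+ve libraries, Serp1, Pdia3 and Sdf2l1 among them. Others among these genes were Rac1, Spi1 and Rpl13, named here after their values were seen. Rac1, a small GTPase of the cytoskeleton, was at 825 ± 76.6 CPM in resting and 78.3 ± 10.2 CPM in inflamed CCR2+ve monocytes. Spi1, the transcription factor PU.1 of myeloid cells, was at 735 ± 74.9 and 38.1 ± 1.64 CPM. Of 67 genes of ribosomal proteins at that level, 59 lay within 1 of 0 on the log2 scale, with a median of −0.17, but Rpl13 had a log2 fold change of −3.47 (SE 0.12) beside −0.11 (SE 0.14) for Rps3, both parts of the same particle. What part the library preparation, sequencing run or counting had in these drops was not tested, and in bulk RNA fewer cells of a type and less RNA per cell cannot be told apart.

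Pdia4 (chr6:47796141-47813430, minus strand), the isomerase with the lowest resting level per kilobase among the members, was at 104, 97.1, 110.1 and 112 CPM in resting CCR2+ve and 91.5, 99.3, 115 and 114 CPM in resting CCR1/2+ve libraries. In inflamed libraries it was at 319.9, 356, 318 and 261 CPM in CCR2+ve, 408, 311 and 262 CPM in CCR1/2+ve and 204, 286, 236 and 179 CPM in CCR1. All inflamed libraries lay above all resting libraries. Inflamed minus resting, the log2 fold change was 1.49 (SE 0.10) in CCR2+ve and 1.51 (SE 0.13) in CCR1/2+ve monocytes, 2.82-fold and 2.84-fold higher.

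Pdia6 (chr12:17266545-17284770, plus strand), an isomerase that binds BiP, was at 487, 465, 538 and 533 CPM in resting CCR2+ve and 446, 435, 516 and 485 CPM in resting CCR1/2+ve libraries. Its inflamed levels were 1477, 1481, 1379 and 1231 CPM in CCR2+ve, 1786, 1495 and 1197 CPM in CCR1/2+ve and 753, 1050.0, 922 and 701 CPM in CCR1 libraries. The 3 inflamed groups were all above rest, and the CCR1 libraries were below every other inflamed library. The log2 fold change was 1.39 (SE 0.093) in CCR2+ve and 1.53 (SE 0.11) in CCR1/2+ve monocytes.

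Hspa5 (chr2:34771970-34777547, plus strand), the gene of BiP, was at 1234, 1238, 1309.7 and 1484 CPM in resting CCR2+ve and 1059, 1067, 1166 and 1264 CPM in resting CCR1/2+ve libraries. It was at 2451, 2471, 2529 and 2438 CPM in inflamed CCR2+ve, 3029, 2855 and 2698 CPM in inflamed CCR1/2+ve and 2313, 3343, 2922 and 2100.2 CPM in inflamed CCR1 libraries. The inflamed CCR2+ve libraries were the most alike of any group for any member, differing by at most 1.04-fold. Hspa5 was 1.79-fold higher than at rest in CCR2+ve monocytes, with a log2 fold change of 0.84 (SE 0.090), and 2.30-fold higher in CCR1/2+ve monocytes, with 1.20 (SE 0.075).

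Hsp90b1 (chr10:86690209-86705509, minus strand), the ER Hsp90, was at 628, 576, 654 and 704 CPM in resting CCR2+ve and 539, 541, 617 and 603 CPM in resting CCR1/2+ve libraries. It was at 1155, 1104, 1059 and 1059 CPM in inflamed CCR2+ve, 1311, 1098 and 949 CPM in inflamed CCR1/2+ve and 701, 977, 855 and 737 CPM in inflamed CCR1 libraries. Inflamed monocyte libraries did not overlap with resting ones, while the lowest inflamed CCR1 library lay within the resting CCR2+ve range. The log2 fold change was 0.70 (SE 0.090) in CCR2+ve and 0.83 (SE 0.10) in CCR1/2+ve monocytes. Other genes cover 15.7% of its exonic bases, among them 1810014B01Rik on the opposite strand, whose transcript matches 273 bases of Hsp90b1 at 100% and which was at 4.53 ± 0.380 CPM in resting and 1.87 ± 0.234 CPM in inflamed CCR2+ve libraries, so reads of the 2 could not be told apart there if strand was not used in counting.

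Calr (chr8:84841850-84846934, minus strand), the luminal lectin chaperone, was at 303, 283, 336 and 316 CPM in resting CCR2+ve and 295, 296, 313 and 292 CPM in resting CCR1/2+ve libraries. It was at 766, 729.8, 664 and 330.2 CPM in inflamed CCR2+ve, 353, 506 and 471 CPM in inflamed CCR1/2+ve and 621, 798, 650.3 and 498 CPM in inflamed CCR1 libraries. The fourth inflamed CCR2+ve library sat within the resting range and the other 3 were at least 664 CPM. For Calr the log2 fold change was 0.93 (SE 0.19) in CCR2+ve and 0.44 (SE 0.12) in CCR1/2+ve monocytes. The pseudogene Calr-ps (chr2:140955765-140956249) matches 495 bases of Calr at 92.5% identity, and its own mean level was at most 0.137 CPM in any group.

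Canx (chr11:50293961-50325673, minus strand), the membrane-bound lectin chaperone, differed least. It was at 1082, 961, 1215 and 1290.3 CPM in resting CCR2+ve, 862, 905, 1067 and 1049 CPM in resting CCR1/2+ve, 1027, 957, 999 and 935 CPM in inflamed CCR2+ve, 1023, 1023 and 929 CPM in inflamed CCR1/2+ve and 689, 835, 812 and 623 CPM in inflamed CCR1 libraries. Resting and inflamed monocyte libraries overlapped in both populations. The change on the log2 scale was −0.28 (SE 0.10) in CCR2+ve and −0.10 (SE 0.082) in CCR1/2+ve monocytes. With all 19 libraries in 1 fit the second value was 0.031.

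**Figure D2:**
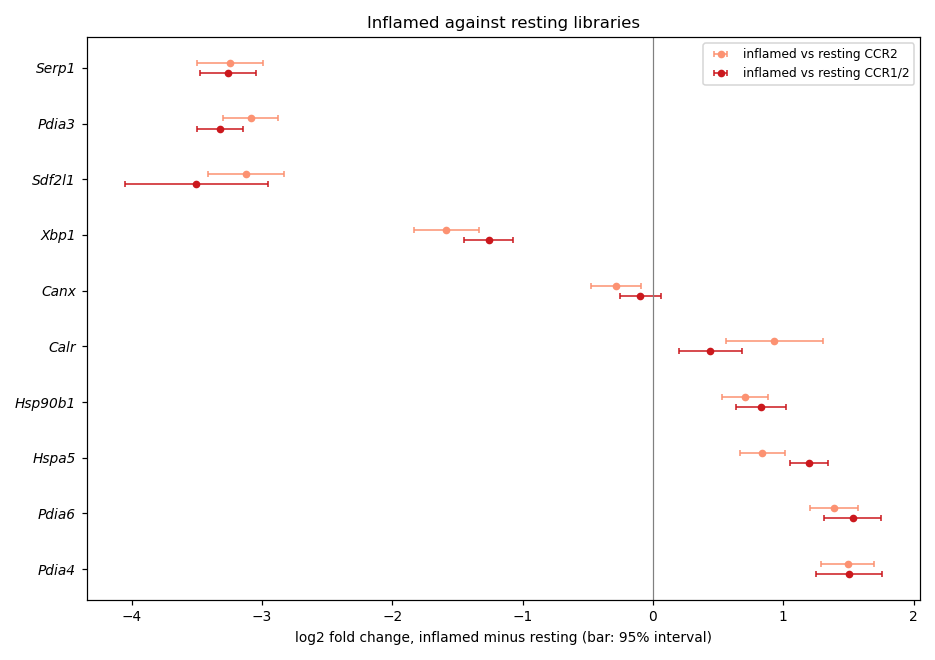
The horizontal axis is the log2 fold change, inflamed minus resting, of each member in CCR2 (light) and CCR1/2 (dark) libraries, with bars for the 95% interval of the fit. Serp1, Pdia3 and Sdf2l1 lie at or below −3.09 in both populations, and Pdia4 and Pdia6 between 1.39 and 1.53.

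Set beside the promoters, the 5 members with an exact motif were Pdia6, Hspa5, Hsp90b1 and Calr, all higher in inflamed monocytes, and Canx, near its resting level. The 5 without one were Serp1, Pdia3, Sdf2l1 and Xbp1, all lower, and Pdia4, higher. No test was made, because the members were chosen on these values. Other genes with the motif went both ways. Of 13 other genes with an exact match that could be tested, 4 were called higher and 1 lower in inflamed CCR2+ve monocytes. In inflamed CCR1/2+ve monocytes 4 were called higher and 2 lower. Their median log2 fold change was 0.51 and −0.42. Both medians were the value of Xlr3a, which did not pass (SE 0.83 and 1.05, adjusted p = 0.65 and 0.78). Derl3 ran from 2.48 (SE 1.42) to −1.30 (SE 1.43), also without passing. The medians' change of sign is therefore not read as a difference between the populations. Of all genes tested, 21.9% were called higher and 25.9% lower at an adjusted p below 0.05 in the first comparison and 20.6% and 25.4% in the second. Syvn1, an ER ubiquitin ligase with the motif, had a log2 fold change of 2.22 in CCR2+ve monocytes, and Creld2, a stress-induced ER protein with the motif, one of −2.81. The motif and the comparison were chosen after the members' values were seen.

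Because the 2 sets moved in opposite directions, the order of the members changed. Levels were compared between genes per kilobase of exon, and neighbours in the order are said to overlap where their ranges of mean ± SD do. Resting CCR2+ve monocytes held most Serp1 (453 ± 55.6 CPM per kb) and Pdia3 (423 ± 37.0), which overlapped, followed by Hspa5 (311 ± 27.7). Canx (242 ± 31.0) and Xbp1 (236 ± 26.2) came next and overlapped, then Sdf2l1 (181 ± 13.2) and Hsp90b1 (159 ± 13.2), which also overlapped, then Pdia6 and Calr, with Pdia4 last (44.1 ± 2.84). In resting CCR1/2+ve monocytes Pdia3 stood above Serp1 and Sdf2l1 above Canx and Xbp1. There the ranges overlapped between Pdia3 and Serp1, Sdf2l1 and Canx, Canx and Xbp1, and Hsp90b1 and Pdia6. In inflamed CCR2+ve monocytes Hspa5 led (585 ± 9.50 CPM per kb), followed by Pdia6 (372 ± 31.4) and Hsp90b1 (271 ± 11.3). There Hsp90b1 overlapped with Calr and Calr with Canx. Pdia3 (52.2 ± 4.87) and Serp1 (50.0 ± 6.09), which overlapped, were eighth and ninth, and Sdf2l1 was last (21.9 ± 4.92). Inflamed CCR1/2+ve monocytes had the same order with Canx and Calr exchanged, and there Pdia6 overlapped with Hsp90b1 and Calr with Pdia4. In the inflamed CCR1 libraries Hspa5 again led (631 ± 134). Behind it Pdia6 overlapped with Calr, Calr with Hsp90b1 and Hsp90b1 with Canx. Further down Pdia4 overlapped with Pdia3, Pdia3 with Sdf2l1 and Sdf2l1 with Xbp1 (31.6 ± 2.66), and Serp1 was last (14.7 ± 0.457).

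**Figure D3:**
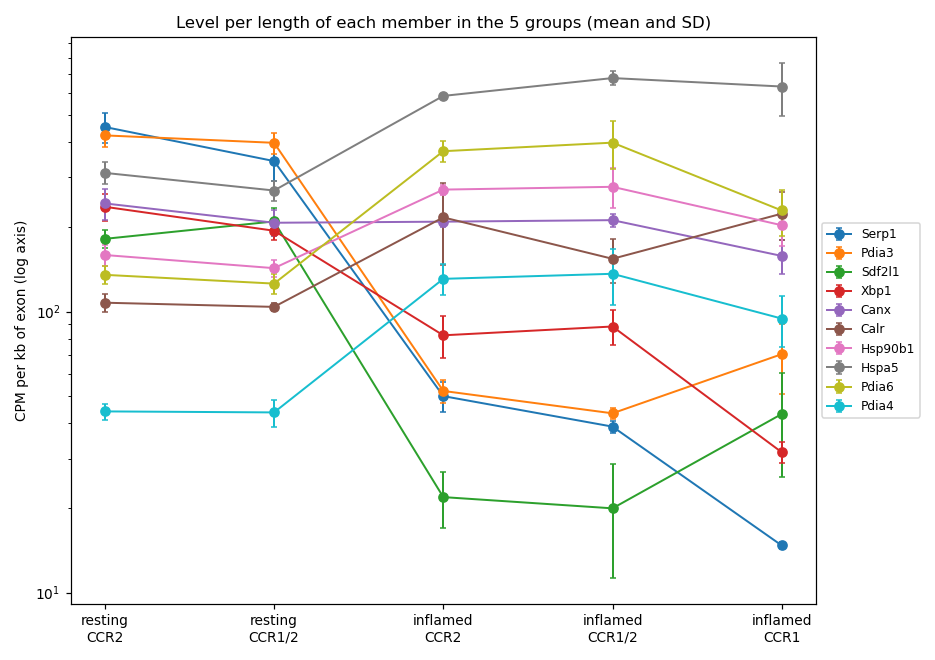
The vertical axis is the level per kilobase of exon (CPM per kb, log axis) and the horizontal axis the 5 groups. Points are group means, bars the SD, and lines join the points of 1 member. Serp1 and Pdia3 are highest in resting CCR2 libraries (453 and 423) and near 50 in inflamed CCR2 libraries, where Hspa5 is at 585.

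Whether the populations differed in these genes could be tested, since that contrast did not choose the members. Between resting CCR1/2+ve and CCR2+ve monocytes the differences were small. Sdf2l1 was higher in CCR1/2+ve monocytes, 232 ± 26.7 against 201 ± 14.6 CPM, with a log2 fold change of 0.28 (SE 0.080, adjusted p = 0.03), and was the only member of 10 past the test, where 8.44% of all genes were called higher and 8.44% lower. No member reached the fold cutoff of 1 as well, which 4.25% of all genes did. Serp1 was at 1581 ± 233 against 2089.6 ± 257 CPM, with −0.33 (SE 0.11, adjusted p = 0.0552). For the other 8 members the log2 fold change lay between −0.21 for Xbp1 and 0.063 for Pdia4, with 95% intervals inside −0.37 to 0.22. The exact two-sided permutation test, which cannot go below 0.0286 with 4 against 4, gave 0.0286 for Xbp1, whose libraries did not overlap, 0.0571 for Serp1 and 0.171 for Sdf2l1. Replicate numbers paired these libraries, and with the number as a block 5 members passed: Sdf2l1 at 0.28 (adjusted p = 8.70e-04), and Serp1 at −0.33 (adjusted p = 8.75e-05), Hspa5 at −0.13 (adjusted p = 0.0382), Canx at −0.15 (adjusted p = 0.0432) and Xbp1 at −0.20 (adjusted p = 0.00556), all 4 lower in CCR1/2+ve monocytes. With the block 12.4% of all genes were called higher and 13.2% lower. Without the block, the call for Sdf2l1 was lost with all 19 libraries in 1 fit (0.21) and without CCR2+ve library 2 or 4 or CCR1/2+ve library 3 or 4 (adjusted p 0.0532, 0.055, 0.0703 and 0.0848). Serp1, just short of the threshold, passed with DESeq2 (adjusted p = 0.00951), RLE factors (0.0394), no filter (0.0338), filterByExpr (0.0305), GC correction (0.0495) and all 19 libraries in 1 fit (0.0185), and without CCR2+ve library 2 (0.0212) or CCR1/2+ve library 4 (0.048). Xbp1 passed with DESeq2 (0.0384).

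Between inflamed CCR1/2+ve and inflamed CCR2+ve monocytes 0 of 10 members passed edgeR's test, in a comparison that called 0.188% of all genes in either direction. DESeq2 also called 0. At an unadjusted p below 0.05 in edgeR's test there were 1675 of the 18652 genes tested, among them 3 members. These were Serp1, at 179.6 ± 8.91 against 231 ± 28.1 CPM, Pdia3, at 136 ± 6.03 against 164 ± 15.3 CPM, and Hspa5, at 2861 ± 166 against 2472 ± 40.2 CPM. Their libraries did not overlap, but 3 against 4 cannot give an exact permutation p below 0.0571, the value that all 3 had. Of all genes tested, 5.51% lay wholly higher and 4.21% wholly lower in the CCR1/2+ve libraries. Among genes with a mean of at least 50 CPM the shares were 12.6% and 3.66%. The 95% intervals of the log2 fold change were −0.62 to −0.14 for Serp1, −0.51 to −0.054 for Pdia3 and 0.023 to 0.36 for Hspa5. For Pdia4, Pdia6, Hsp90b1, Canx and Xbp1 they lay between −0.25 and 0.36, and those of Calr (−1.08 to 0.073) and Sdf2l1 (−0.71 to 0.43) were wider.

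The effect of inflammation was next compared between the populations, as the interaction of population and inflammation over 15 libraries. No member passed edgeR's test, which called 0.397% of all genes in either direction. At an unadjusted p below 0.05 there were 2419 of the 18652 genes tested, 2 members among them. For Hspa5 the inflamed-minus-resting difference was larger in CCR1/2+ve monocytes by 0.32 on the log2 scale (SE 0.11, adjusted p = 0.23), and for Pdia3 the drop was larger there by 0.28 (SE 0.13, adjusted p = 0.37). DESeq2 called 1 member, Hspa5, at 0.38 (adjusted p = 0.0431). Without inflamed CCR2+ve library 4, Calr passed edgeR's test at −0.74 (adjusted p = 0.0299), against −0.53 (adjusted p = 0.40) with it. The interaction of Serp1 was −0.059 (SE 0.17).

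The inflamed CCR1 libraries, low in monocyte markers and high in granule transcripts, differed from inflamed CCR2+ve monocytes in 7 of 10 members, 1 higher and 6 lower, where 22.7% of all genes were called higher and 25.4% lower. Serp1 was lower, at −1.76 (SE 0.11, adjusted p = 1.04e-09) on the log2 scale, and so was Xbp1, at −1.38 (SE 0.13, adjusted p = 7.65e-08). These 2 also passed the fold cutoff, as did 31.3% of all genes. The chaperones and isomerases Pdia6, at −0.69 (SE 0.12, adjusted p = 1.75e-04), Pdia4, at −0.46 (SE 0.14, adjusted p = 0.0107), Hsp90b1, at −0.41 (SE 0.11, adjusted p = 0.00488), and Canx, at −0.40 (SE 0.11, adjusted p = 0.00541), were lower by less. Sdf2l1 was higher, 47.9 ± 19.4 against 24.2 ± 5.45 CPM, with 0.99 (SE 0.33, adjusted p = 0.0292), but that call was lost when any library other than inflamed CCR1 library 4 was left out (adjusted p 0.0511 to 0.0924) and with no filter on low counts (0.0798). Pdia3 had 0.44 (SE 0.19, adjusted p = 0.065) and passed with DESeq2 (adjusted p = 0.0409), RLE factors (0.045), filterByExpr (0.045) and all 19 libraries in 1 fit (0.0185), and without inflamed CCR1 library 4, at 0.63 (adjusted p = 2.51e-04). Hspa5 and Calr did not pass, with 95% intervals of −0.14 to 0.37 and −0.41 to 0.52. In exact two-sided permutation tests Serp1, Pdia6, Hsp90b1, Canx and Xbp1, whose libraries did not overlap, gave the smallest possible 0.0286. Of all genes tested 24.1%, and of those with a mean of at least 50 CPM 41.7%, likewise lay wholly lower in the inflamed CCR1 libraries. The summed level of 9 mature neutrophil markers was 104391 to 152952 CPM in the inflamed CCR1 and 1242 to 1593 CPM in the inflamed CCR2+ve libraries, that of 8 cycling genes 4882 to 5371 and 1669 to 2816 CPM, and that of 4 T and NK cell markers, mostly Nkg7, 1360.1 to 1707 and 2.65 to 3.44 CPM. Their part in these differences was not tested.

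Against inflamed CCR1/2+ve monocytes, which are not independent of the comparison before since the CCR1 libraries are shared, 8 of 10 members passed in the inflamed CCR1 libraries, 2 higher and 6 lower, beside 20.2% and 23.0% of all genes. Serp1 was at −1.40 (SE 0.10, adjusted p = 4.20e-08) and Xbp1 at −1.48 (SE 0.11, adjusted p = 6.93e-08), the 2 members past the fold cutoff, which 27.7% of all genes also passed. Pdia6, at −0.80 (SE 0.16, adjusted p = 0.00204), Hsp90b1, at −0.45 (SE 0.13, adjusted p = 0.0119), and Canx, at −0.42 (SE 0.11, adjusted p = 0.00602), were lower. The calls of Pdia3, at 0.70 (SE 0.23, adjusted p = 0.0408), Calr, at 0.53 (SE 0.18, adjusted p = 0.0403), and Pdia4, at −0.52 (SE 0.18, adjusted p = 0.0367), lay close to the threshold. Pdia3 lost it without CCR1/2+ve library 2, 3 or 4 or CCR1 library 1, 2 or 3 (adjusted p 0.0593 to 0.138), and Calr without CCR1/2+ve library 2 or 4 or CCR1 library 1, 2 or 3 (0.0555 to 0.081). Pdia4 lost it without CCR1/2+ve library 2 or 3 or CCR1 library 1, 3 or 4 (0.0697 to 0.143), and Hsp90b1 without CCR1 library 1 (0.0659). With no filter on low counts the calls of Pdia3 (0.0752), Calr (0.0574) and Pdia4 (0.0855) were lost, and with GC correction those of Hsp90b1, at −0.31 (adjusted p = 0.0509), and Canx, at −0.29 (adjusted p = 0.0599). Sdf2l1 did not pass, with 1.11 (SE 0.48, adjusted p = 0.12), and passed with DESeq2 (0.00664), filterByExpr (0.0457) and all 19 libraries in 1 fit (0.0068), and without CCR1/2+ve library 4 (0.0455) or CCR1 library 4 (0.0102). The interval of Hspa5 was −0.38 to 0.18.

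**Figure D4:**
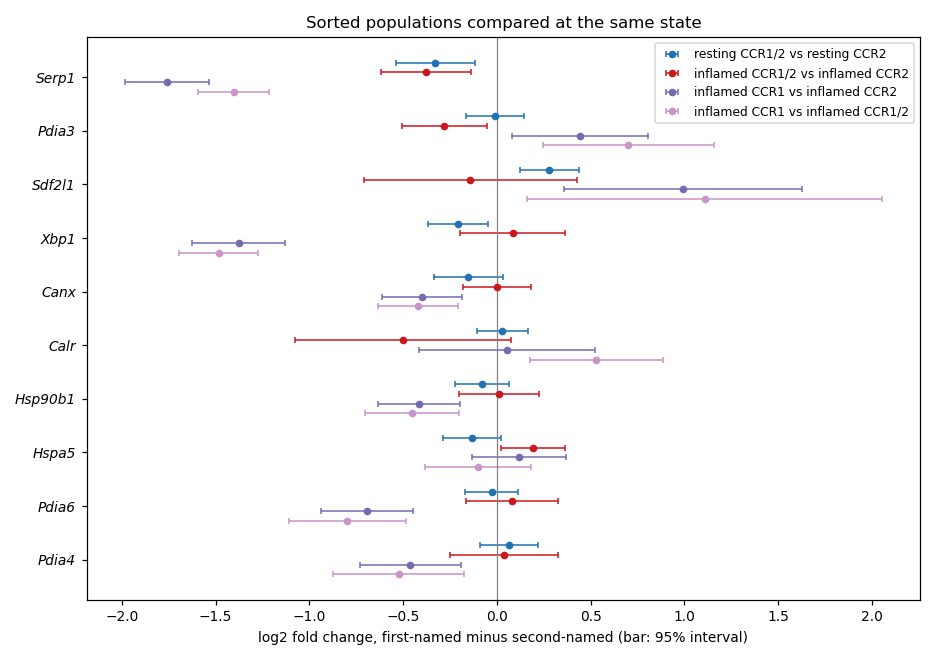
The horizontal axis is the log2 fold change of each member, first-named minus second-named group, for 4 comparisons of sorted populations at the same state, with 95% intervals. Both comparisons with the inflamed CCR1 libraries put Serp1 and Xbp1 at −1.38 or lower, and the comparisons of CCR1/2 with CCR2 libraries run from −0.50 for Calr to 0.28 for Sdf2l1.

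Within the inflamed groups, the members that were lower in inflamed monocytes did not vary in step. At rest they were more alike: Serp1, Pdia3, Sdf2l1 and Xbp1 were all highest in resting CCR1/2+ve library 4. Serp1, Pdia3 and Xbp1 were also highest in resting CCR2+ve library 4, where Sdf2l1 was highest in library 3. Resting CCR2+ve library 2 was the lowest for 8 of 10 members, these 3 among them. In the inflamed CCR2+ve group, library 4 was the lowest for 8 of 10 members but the highest for Serp1 and Xbp1. Inflamed CCR1 library 4 was also the lowest for 8 members and the highest for Xbp1. Pdia3, Calr and Sdf2l1 were lowest of their group in inflamed CCR2+ve library 4, inflamed CCR1/2+ve library 2 and inflamed CCR1 library 4 alike, a set of libraries picked after their values were seen. In these 3 libraries Calr was at 0.459, 0.723 and 0.723 times the mean of the rest of its group, and Sdf2l1 at 0.638, 0.536 and 0.357 times. In CCR1/2+ve library 2 the isomerases went the other way, with Pdia4 at 1.43 and Pdia6 at 1.33 times. Of the 3802 genes of at least 50 CPM, 263 (6.92%) were lowest in all 3 libraries, and of the 95 other ER and UPR genes tested 16 were, Dnajb11, P4hb, Rpn1 and Vcp among them. P4hb, the first-described disulphide isomerase, was at 0.564, 0.748 and 0.639 times.

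The genes whose pattern over the 19 libraries was most like that of a member were mostly not ER chaperones. Likeness was the root mean square difference of log2 CPM, each gene centred on its mean, over 7685 genes with a mean of at least 10 CPM, and the points share the libraries and their depth. Nearest to Serp1 were H13 (0.20), Rac1 (0.20) and Lamp1 (0.21), of which H13 encodes signal peptide peptidase of the ER and Lamp1 a lysosomal membrane protein. H13 was at 399.9 CPM in resting and 41.5 CPM in inflamed CCR2+ve libraries and at 16.2 CPM in inflamed CCR1 libraries. Nearest to Pdia3 were Gadd45gip1 (0.18), Cdc16 (0.18) and Phb2 (0.19), and among the members Sdf2l1 came closest to it, at rank 44 (0.29). Serp1 stood at rank 886 from Pdia3 (0.89). Nearest to Hspa5 were Nars (0.12), a tRNA synthetase, Ewsr1 (0.12) and Tmed9 (0.13), a cargo receptor between ER and Golgi, and the closest member was Pdia4, at rank 405 (0.27), followed by Hsp90b1 at rank 435 (0.28).

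Genes moved both ways in the rest of the ER machinery too, for which 97 further genes on 5 textbook lists were in the table and 95 were tested. In CCR2+ve monocytes 39 rose and 39 fell with inflammation, against 21.9% and 25.9% of all genes. In CCR1/2+ve monocytes 33 rose and 35 fell, against 20.6% and 25.4%. The median log2 fold change of the 95 was 0.032 and −0.14. The shares of all genes, here and below, include genes of low counts and were not matched to the lists for level. With filterByExpr 3795 of 12484 genes rose and 4247 fell in CCR2+ve monocytes, and 3779 and 4425 of 13080 in CCR1/2+ve monocytes. Hyou1, the nucleotide exchange factor of BiP, rose in CCR2+ve monocytes, 65.6 ± 7.39 against 6.83 ± 1.10 CPM, a log2 fold change of 3.19 (SE 0.14, adjusted p = 1.57e-10). Bak1, which binds the sensor IRE1 and acts in apoptosis, rose with 2.54 (SE 0.11, adjusted p = 1.39e-10), and Syvn1 with 2.22 (SE 0.11, adjusted p = 3.88e-10). Hyou1 and Bak1 are also on a list that the study drew from these libraries, so their direction is not independent evidence. Creld2 fell with −2.81 (SE 0.11, adjusted p = 5.73e-11), Tram1, which helps chains through the translocon, with −3.09 (SE 0.13, adjusted p = 6.87e-11), and Ddost, a subunit of the oligosaccharyltransferase, with −2.72 (SE 0.11, adjusted p = 8.26e-11). In CCR1/2+ve monocytes the smallest p among the genes that rose were those of Bak1, Os9, at 2.05 (SE 0.10, adjusted p = 1.93e-08), and Tmbim6, at 1.43 (SE 0.087, adjusted p = 1.25e-07), and among those that fell again those of Ddost, Tram1 and Creld2.

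Each list held genes that rose and genes that fell. Of 25 ER chaperones and folding enzymes outside the members, 10 rose and 14 fell in CCR2+ve monocytes and 7 rose and 15 fell in CCR1/2+ve monocytes. Beside Creld2, the thioredoxin-family genes Txndc11 (−2.64) and Txndc5 (−2.46) and the co-chaperone Dnajb9 (−2.10) fell in CCR2+ve monocytes, and Sil1 (0.77) and Fkbp2 (0.60) rose. Of 20 genes of glycan trimming and ER-associated degradation, 10 rose and 8 fell in CCR2+ve and 9 rose and 6 fell in CCR1/2+ve monocytes, with Man1b1 (1.90) and Os9 (1.68) up and Edem1 (−1.91) and Derl1 (−1.45) down in CCR2+ve monocytes. Of 22 genes of the translocon, signal peptidase and oligosaccharyltransferase, 6 rose and 7 fell in CCR2+ve and 8 rose and 7 fell in CCR1/2+ve monocytes. Subunits of the oligosaccharyltransferase went both ways in CCR2+ve monocytes, Ddost (−2.72) and Ost4 (−1.86) down and Rpn2 (0.92) and Stt3a (0.52) up.

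Of 13 sensors and regulators of the UPR, 5 rose and 5 fell in CCR2+ve and 5 rose and 3 fell in CCR1/2+ve monocytes. Eif2ak3, the gene of PERK, fell by 2.10 and 1.72 on the log2 scale, while Atf6 rose by 0.66 and 0.98 and Mbtps1, the protease that cuts ATF6, by 1.31 and 1.27. Ern1, the gene of IRE1, had −0.46 in CCR2+ve monocytes, where it passed, and −0.25 in CCR1/2+ve monocytes, which did not pass. Of 15 genes of the ATF4 branch, 8 rose and 5 fell in CCR2+ve and 4 rose and 4 fell in CCR1/2+ve monocytes. Trib3 (1.81) and Asns (1.22) rose and Eif4ebp1 (−3.26) and Slc3a2 (−2.22) fell in CCR2+ve monocytes, and Atf4 itself had −0.11 there, which did not pass, and −0.60 in CCR1/2+ve monocytes, which did.

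**Figure D5:**
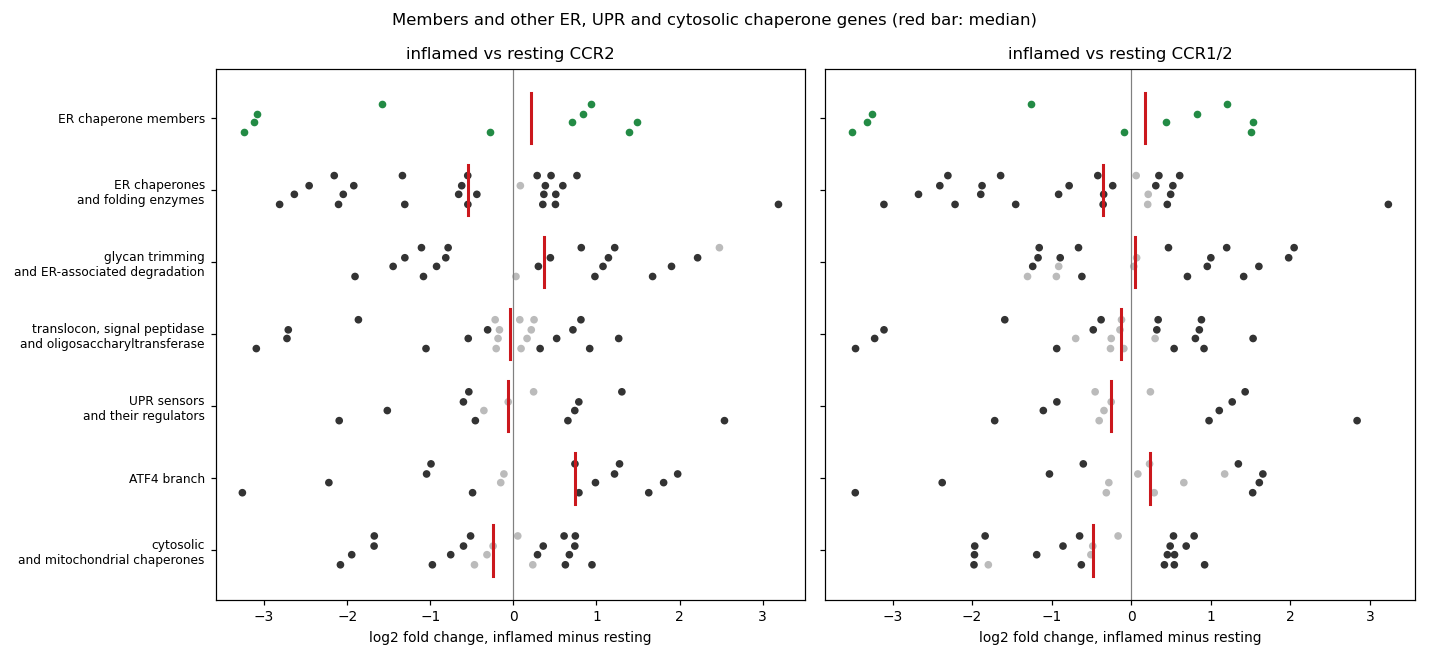
The horizontal axis is the log2 fold change, inflamed minus resting, in CCR2 (left) and CCR1/2 (right) libraries; each point is a gene of the list named at the left, green for the members, black where the adjusted p is below 0.05 and grey otherwise, and red bars are medians. Points lie on both sides of 0 in every list, from −3.26 for Eif4ebp1 to 3.19 for Hyou1 in CCR2 libraries.

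Between the populations at rest, 10 of the 95 other ER and UPR genes were higher and 15 lower in CCR1/2+ve monocytes, beside 8.44% of all genes in each direction. With the replicate number as a block 14 were higher and 30 lower, beside 12.4% and 13.2% of all genes. Phgdh, an enzyme of serine synthesis, was higher at 1.43 (SE 0.17, adjusted p = 1.74e-04), Psat1 of the same pathway at 0.87 (SE 0.11, adjusted p = 2.97e-04) and the isomerase Pdia5 at 0.81 (SE 0.13, adjusted p = 9.33e-04). Atf3 was lower at −1.46 (SE 0.13, adjusted p = 5.58e-05) and the mannosidase-like Edem1 at −0.58 (SE 0.085, adjusted p = 6.32e-04). Of the 13 sensors and regulators 7 were lower and 0 higher. Of the 95 genes, 0 passed edgeR's test between inflamed CCR1/2+ve and CCR2+ve monocytes and 1 was called by DESeq2. At an unadjusted p below 0.05 there were 11 of them, beside 1675 of the 18652 genes tested. In the interaction, which called 0.397% of all genes, Edem1 passed at 0.69 (SE 0.15, adjusted p = 0.0481). That call was lost without inflamed CCR1/2+ve library 3, where the interaction called 0 of all genes.

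In the inflamed CCR1 libraries 24 of the 95 genes were higher and 43 lower than in inflamed CCR2+ve monocytes, beside 22.7% and 25.4% of all genes, and 21 higher and 37 lower than in inflamed CCR1/2+ve monocytes, beside 20.2% and 23.0%. Among the sensors and regulators 9 of 13 were lower and 1 higher than in CCR2+ve monocytes. Atf6 was lower at −2.15 (SE 0.12, adjusted p = 1.09e-10) and Txndc5 at −4.31 (SE 0.19, adjusted p = 5.61e-12), and the stress regulator Nupr1 at −5.48 (SE 0.23, adjusted p = 5.71e-11). The smallest p among the genes that were higher were those of Asns, which makes asparagine, at 3.75 (SE 0.15, adjusted p = 1.78e-12), of the thioredoxin-family gene Tmx4, at 3.47 (SE 0.14, adjusted p = 2.02e-12), and of Chac1, which breaks down glutathione, at 4.56 (SE 0.21, adjusted p = 1.31e-11). The same 3 genes and Txndc5 led the comparison with inflamed CCR1/2+ve monocytes, where Ptpn1 was lower at −1.82 (SE 0.11, adjusted p = 1.38e-08) and Dnajc10, a disulphide reductase of the ER, at −1.55 (SE 0.10, adjusted p = 2.21e-08).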

How the data were processed

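RNA of 19 libraries of sorted mouse bone marrow cells was measured by paired-end sequencing. Per the labels and the study's methods, the authors assessed reads with fastp, aligned them to GRCm38 with STAR 2.7.10a and took its raw counts of uniquely mapped reads per Ensembl gene, which are the deposited values. The strand setting is not given in the sources used here. Of 20 count columns, 1 matched no sample and was not used.

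Groups followed the sample titles. The 18652 of 50854 genes that averaged 1 read or more were tested with edgeR 4.0.16 (quasi-likelihood, TMM, R 4.3.3) on the libraries of each comparison, with Benjamini-Hochberg adjustment over all genes, and called at an adjusted p below 0.05. The study's fold cutoff is a log2 fold change of at least 1 in size. An SE is the fold change over the root of F. Exact permutation tests were two-sided on the difference of mean CPM. Same-numbered resting libraries deviated together (correlations 0.30 to 0.52 in 4 pairs over 9158 genes, other pairs −0.37 to 0.18), so the replicate block is given for that comparison. The code was tested on simulated data. Alternatives were DESeq2 1.42.0, RLE factors, other filters, 1 fit over all libraries, the block, GC correction and leaving out each library. Near-identical copies were sought with BLAST 2.17.0 among annotated transcripts (GENCODE M21) only. Gene positions are GRCm38 from GENCODE M21. Genes outside the members are named by the 3 smallest p-values in each direction, and others as examples chosen after their values were seen. A gene that this rule names is not reported here. The members and lists were chosen with earlier results of these data known. Ctsg, Trac, Dnajc3, Ero1l, Spcs1 and Dad1 were not analysed here.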

Additional observations from a re-analysis of the deposited data

Results flagged for a closer look

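Of 40 groups of 4 libraries tested over the members, 1 held a library far from the others, where chance gives about 2. Pdia3 was at 129.9 CPM in inflamed CCR1 library 4 and between 243 and 264 CPM in the other 3, a gap of 0.844 of the group's range. That library was also the lowest of its group for 8 of 10 members, as were resting CCR2+ve library 2 and inflamed CCR2+ve library 4.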

How the results depend on the processing

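Between inflamed and resting monocytes, no member other than Canx, in CCR1/2+ve monocytes, changed direction under any alternative: Serp1 stayed between −3.33 and −3.11 in CCR2+ve and between −3.31 and −3.14 in CCR1/2+ve monocytes, and Pdia3 between −3.16 and −2.98 and between −3.47 and −3.20. The members' median in CCR1/2+ve monocytes (0.17) was 0.30 with all libraries in 1 fit and 0.038 with GC correction and replicate block. Between the resting populations, 1 member passed, against 3 with DESeq2, 2 each with RLE factors, no filter, filterByExpr or GC correction, 5 with the replicate block, 6 with GC correction and block, and 0 to 1 when a library was left out; other ER and UPR genes numbered 25, and 44 with the block, 45 with GC correction and block and 16 to 30 with a library left out. Between inflamed CCR1/2+ve and CCR2+ve monocytes, 0 members passed and 1 did with GC correction and block, while 0 other ER and UPR genes became 1 with DESeq2, no filter, all libraries, the block, or GC correction and block. Against inflamed CCR1/2+ve monocytes, 8 members passed in inflamed CCR1 libraries, 5 without a filter, 4 with GC correction and block and 4 to 8 with a library left out. With all libraries in 1 fit the calls over all genes split 1006 higher to 1540 lower between resting populations (1575 to 1574 otherwise) and 151 to 36 in the interaction (45 to 29). In the interaction, 0 members became 1 with DESeq2 and 0 to 1 with a library left out. These resting numbers pair the libraries. Between inflamed CCR1 and CCR2+ve libraries same-numbered pairs also lay above the others, but weakly (correlations 0.097 to 0.196 in 4 pairs, other pairs −0.20 to 0.080). In the remaining comparisons the ranges of same-numbered and other pairs overlapped. Against CCR2+ve monocytes the block moved members higher in inflamed CCR1 libraries from 1 to 2 (Pdia3, adjusted p = 0.0353). Against CCR1/2+ve monocytes it moved them from 2 to 0 (Pdia3, adjusted p = 0.22, and Calr, 0.24), and other ER and UPR genes higher there from 21 to 13. Against CCR1/2+ve monocytes, GC correction with the block also lost Hsp90b1 (0.0712) and Canx (0.12). Small differences changed sign. At rest these were Pdia3 (0.012 with filterByExpr), Pdia4 (−0.012) and Calr (−0.049, both with all libraries). Between inflamed CCR1/2+ve and CCR2+ve monocytes they were, with GC correction, Pdia4 (−0.029), Hsp90b1 (−0.11) and Canx (−0.11), and with the block added Pdia4 (−0.019), Hsp90b1 (−0.071), Canx (−0.078) and Sdf2l1 (0.016). For Hspa5 in inflamed CCR1 against CCR1/2+ve libraries GC correction gave 0.017, and 0.044 with the block. In the interaction Pdia4 was 0.033 with DESeq2 or RLE factors and 0.072 with all libraries, and Serp1 0.042 with all libraries. Leaving out 1 library gave −0.044 to 0.014 for Pdia3 and −0.0037 to 0.062 for Calr at rest. Between inflamed CCR1/2+ve and CCR2+ve monocytes it gave −0.14 to 0.19 for Pdia4, −0.055 to 0.23 for Pdia6, −0.10 to 0.14 for Hsp90b1, −0.030 to 0.062 for Canx, −0.024 to 0.17 for Xbp1 and −0.53 to 0.11 for Sdf2l1. Of inflamed CCR1 libraries it gave −0.15 to 0.17 for Calr and −0.0035 to 0.22 for Hspa5 against CCR2+ve, and −0.23 to 0.011 for Hspa5 against CCR1/2+ve libraries. In the interaction it gave −0.14 to 0.020 for Serp1, −0.21 to 0.10 for Pdia4, −0.035 to 0.23 for Pdia6 and −0.033 to 0.19 for Hsp90b1. The cause of these changes was not tested.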

Other observations

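Chaperones outside the ER moved both ways as well. Of 21 genes of cytosolic and mitochondrial chaperones, 8 rose and 8 fell in inflamed CCR2+ve monocytes, and 9 rose and 8 fell in inflamed CCR1/2+ve monocytes, in edgeR's test, beside 21.9% and 25.9% of all genes in the first and 20.6% and 25.4% in the second comparison. Their median log2 fold change was −0.24 and −0.48. Hspa4, a cytosolic nucleotide exchange factor of the Hsp70 family, went from 189 ± 15.0 to 51.3 ± 6.89 CPM in CCR2+ve monocytes, with −1.95 (SE 0.12, adjusted p = 4.41e-09) in CCR2+ve and −1.97 (SE 0.12, adjusted p = 1.09e-07) in CCR1/2+ve monocytes on the log2 scale. Hspa9, the mitochondrial Hsp70, had −1.67 (SE 0.11, adjusted p = 6.76e-09) in CCR2+ve and −1.84 (SE 0.093, adjusted p = 2.97e-08) in CCR1/2+ve monocytes. The Hsp40 genes went apart, Dnajb1 with −1.68 (SE 0.16, adjusted p = 4.07e-07) in CCR2+ve and −1.97 (SE 0.36, adjusted p = 0.00168) in CCR1/2+ve monocytes and Dnaja1 with 0.63 (SE 0.12, adjusted p = 4.37e-04) in CCR2+ve and 0.79 (SE 0.10, adjusted p = 4.50e-05) in CCR1/2+ve monocytes. Stip1, which links Hsp70 to Hsp90, had 0.95 (SE 0.12, adjusted p = 6.85e-06) in CCR2+ve and 0.92 (SE 0.12, adjusted p = 4.66e-05) in CCR1/2+ve monocytes, and Cct5, a subunit of the cytosolic chaperonin, 0.74 (SE 0.088, adjusted p = 5.22e-06) in CCR2+ve and 0.69 (SE 0.10, adjusted p = 1.23e-04) in CCR1/2+ve monocytes. Both cytosolic Hsp90 genes fell, Hsp90ab1 with −0.51 (SE 0.10, adjusted p = 5.00e-04) in CCR2+ve and −0.65 (SE 0.094, adjusted p = 1.32e-04) in CCR1/2+ve monocytes.

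In the inflamed CCR1 libraries 5 of these 21 genes were higher and 3 lower than in inflamed CCR2+ve monocytes, beside 22.7% and 25.4% of all genes. Dnajb1 was higher, at 137 ± 26.7 against 37.0 ± 9.22 CPM, near its resting CCR2+ve level of 113 ± 9.07 CPM, and Hsp90aa1 was at 245 ± 25.9 against 106 ± 30.9 CPM. These genes were chosen as examples after their values were seen.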
